A study of Mus musculus with 2 samples.

Results

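The Hsd3b genes of the mouse adrenal gland were described from long-read RNA sequencing, in which a single read can cover a transcript from its first exon to its last. The 5 genes Hsd3b1, Hsd3b2, Hsd3b3, Hsd3b6 and Hsd3b7 were taken by gene name from the transcript tables, with every class of transcript model kept, out of 16457 genes with reads. Their models numbered 48 of 88716 in replicate 1 and 43 of 85696 in replicate 2. The tissue was the whole adrenal gland of male B6CASTF1/J mice, an F1 hybrid strain, aged 2 months, in 1 group of 2 libraries. The labels name no treatment and no modified allele, so the values describe the tissue and the distance between the libraries. The labels give the libraries separate biological replicate numbers but also 1 shared donor identifier and contradictory animal numbers, so the spread between them may be technical and p-values compare these libraries only.

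3β-hydroxysteroid dehydrogenases turn the Δ5 steroids made from cholesterol into Δ4 steroids, as in the step from pregnenolone to progesterone, and every adrenal steroid hormone passes through this step. In the mouse, Hsd3b1 is the form known from the adrenal cortex and the gonads, and Hsd3b6 is known from the zona glomerulosa, the outer cortical zone that makes aldosterone. Hsd3b2 and Hsd3b3 are relatives known from kidney and liver. Hsd3b7 is a distant relative that acts on sterols with a full side chain in bile acid synthesis.

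The first 60 coding bases are shown to let a reader see how far the genes can be told apart in a read. They were taken from the annotated transcripts (GENCODE M21, mm10), and capitals mark bases that differ from Hsd3b1 at the same position.
Hsd3b1: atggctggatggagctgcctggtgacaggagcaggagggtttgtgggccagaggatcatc
Hsd3b6: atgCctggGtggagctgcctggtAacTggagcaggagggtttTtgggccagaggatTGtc
Hsd3b2: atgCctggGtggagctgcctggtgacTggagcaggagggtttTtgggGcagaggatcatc
Hsd3b3: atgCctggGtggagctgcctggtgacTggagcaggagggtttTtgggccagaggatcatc
Hsd3b7: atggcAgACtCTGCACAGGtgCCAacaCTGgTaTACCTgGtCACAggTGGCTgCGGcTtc
Hsd3b6 differed from Hsd3b1 at 7 of these bases, Hsd3b2 at 5, Hsd3b3 at 4 and Hsd3b7 at 38. Over the whole coding sequence of 1122 bases, Hsd3b1 was 90.0% identical to Hsd3b6 (112 differing bases) and 89.3% identical to both Hsd3b2 and Hsd3b3. Hsd3b2, Hsd3b3 and Hsd3b6 were closer to each other, at 94.4% to 95.1%. Hsd3b7, with 1110 coding bases, shared 54.1% of aligned positions with Hsd3b1.

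The annotated start of Hsd3b1 and that of Hsd3b6 behaved differently in the reads, so the 250 bases before each are shown, as RefSeq (GRCm38.p6) gives them. The Hsd3b1 window lies before a start that held 0.254% and 0.140% of its reads. The bases before the start in exon 2, whose models held most reads, were not available and are not shown. All 5 genes had a promoter window in that table. Capitals mark the motif CCAAT.
Hsd3b1, chr3:98859795-98860044, minus strand: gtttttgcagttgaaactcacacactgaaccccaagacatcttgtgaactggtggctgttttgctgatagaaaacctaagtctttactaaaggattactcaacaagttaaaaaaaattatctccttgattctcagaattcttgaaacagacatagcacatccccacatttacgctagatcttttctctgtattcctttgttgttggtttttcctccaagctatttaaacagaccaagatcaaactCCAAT
Hsd3b6, chr3:98814444-98814693, minus strand: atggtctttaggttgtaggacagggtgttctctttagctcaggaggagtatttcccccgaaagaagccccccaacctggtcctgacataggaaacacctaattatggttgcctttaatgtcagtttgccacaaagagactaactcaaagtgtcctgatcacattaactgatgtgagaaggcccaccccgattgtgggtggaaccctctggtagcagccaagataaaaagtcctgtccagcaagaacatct
The nuclear receptor half-site AGGTCA, the TATA box as TATAAA, the CCAAT box and the cAMP response element half-site TGACGT were searched on both strands in the windows of all 5 genes. CCAAT lay in the last 5 bases before the Hsd3b1 start, and its reverse complement lay in both Hsd3b3 windows. These are matches of letters only, and whether any acts as a CCAAT box was not tested. The motif CCAAT occurred on either strand in 33.8% of 32851 RefSeq windows of this length. The other motifs had no match in the windows of the 5 genes and occurred in 14.0% of all windows for the nuclear receptor half-site, 12.4% for the TATA box and 6.47% for the cAMP half-site; those letters were not in these stretches.

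The libraries held 824225 reads on genes (replicate 1) and 656826 (replicate 2). Levels are in CPM, reads scaled to a common library total, and a count of 0 allowed up to 3 reads in a library, which is 3.64 CPM in replicate 1 and 4.57 CPM in replicate 2. Markers of the labelled tissue were present: all 4 zona fasciculata markers, summing to 16589 and 19415 CPM, and all 5 chromaffin cell markers, summing to 11251 and 12408 CPM, had reads in both libraries. The 6 kidney markers held 7 and 6 reads, with Umod, Slc12a1, Slc34a1 and Lrp2 at 0 and Aqp2 at 6 in each library. The 6 liver markers held 0 and 2. The 4 Leydig cell markers held 1 and 4 reads, and the 3 X-zone markers held 7 and 4. All 5 adipocyte markers had reads, summing to 8085 CPM in replicate 1 and 4202 CPM in replicate 2, and 3 of them were called higher in replicate 1 by the criteria given below, against 2.36% of all genes tested. The part of the adipocyte difference in the Hsd3b values was not tested.

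Hsd3b1 was by far the most abundant of the 5 genes. It had 6305 reads in replicate 1 and 4990 in replicate 2, or 7650 and 7597 CPM (mean 7623 ± 37.1, SD, n = 2), and ranked 5 among all genes with reads. The small SD belongs to scaling by library totals, since on TMM-scaled totals, used for the ratios below, the mean was 7629 ± 413 CPM. Hsd3b6 had 212 and 179 reads, or 257 and 273 CPM (265 ± 10.8, SD, n = 2), and ranked 630. Hsd3b7 had 69 and 47 reads, or 83.7 and 71.6 CPM (77.6 ± 8.60, SD, n = 2), and ranked 2666. Hsd3b2 and Hsd3b3 had 0 reads in both libraries. The order Hsd3b1, Hsd3b6, Hsd3b7 was the same in both libraries, and the libraries' values for different genes did not overlap.

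**Figure D1:**
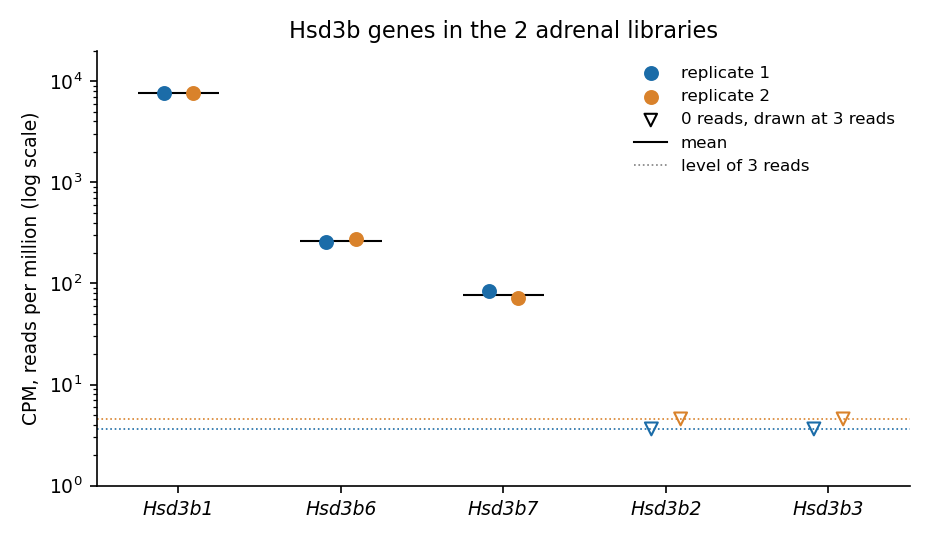
Level of each Hsd3b gene in CPM on a log axis. Points are the 2 libraries, black lines are means, open triangles are counts of 0 drawn at the level of 3 reads (dotted lines); Hsd3b1 stands at 7650 and 7597, Hsd3b6 at 257 and 273, and Hsd3b7 at 83.7 and 71.6.

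Per kilobase of the transcripts Hsd3b1-202, Hsd3b6-201 and Hsd3b7-201, Hsd3b1 stood at 4110 ± 20.0 CPM per kb, Hsd3b6 at 147 ± 6.01 and Hsd3b7 at 42.5 ± 4.70 (SD, n = 2). On this scale, Hsd3b1 was 28.9 times as abundant as Hsd3b6 in replicate 1 and 27.1 times in replicate 2. It was 90.0 and 105 times as abundant as Hsd3b7. Hsd3b6 exceeded Hsd3b7 by 3.12 and 3.86 times. Per read, without division by length, Hsd3b1 stood at 29.7 and 27.9 times Hsd3b6 and at 91.4 and 106 times Hsd3b7. Per read, Hsd3b6 stood at 3.07 and 3.81 times Hsd3b7. Hsd3b1-202 itself held only 2 and 1 reads, so its length is not that of most Hsd3b1 reads. In whole tissue, fewer cells of a type and less RNA per cell cannot be told apart.

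The libraries were compared gene by gene with a two-sided exact binomial test of reads, Benjamini-Hochberg adjusted over the 8063 genes that reached 20 reads in sum. Calls needed an adjusted p under 0.05 together with a ratio of 2-fold or more. None of the 3 Hsd3b genes tested was called, against a background of 3.41% of genes (275 of 8063), and by an adjusted p under 0.05 alone 1 of the 3 passed, against 11.1%. Of the 275, 190 were higher in replicate 1 and 85 in replicate 2. By library totals the split was 131 and 128, and by DESeq2 size factors it was 235 and 69. On the log2 scale, replicate 2 over replicate 1, Hsd3b1 differed by -0.11 (exact binomial adjusted p = 0.00105). This small difference depended on the scaling. By library totals it was -0.01 (exact binomial adjusted p = 0.905), and by DESeq2 size factors it was -0.16 (exact binomial adjusted p = 8.36e-08). Hsd3b6 differed by -0.02 (exact binomial adjusted p = 1.00) and Hsd3b7 by -0.32 (exact binomial adjusted p = 0.590).

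The reads of Hsd3b1 hardly used its annotated start. Hsd3b1 (ENSMUSG00000027871.16) lies on the minus strand at chr3:98852194-98859794 (mm10) with 2 annotated transcripts: Hsd3b1-202 has 5 exons, and Hsd3b1-201 lacks exon 2. Exon 1 (98859672-98859794, 123 bases) and exon 2 (98858152-98858341, 190 bases) are noncoding, and the start codon lies in exon 3 (98857820-98858026) at 98857964. Models beginning in exon 1 held 16 of 6305 reads in replicate 1 (0.254%, 95% Wilson interval 0.156 to 0.412) and 7 of 4990 in replicate 2 (0.140%, 0.0680 to 0.289). Both libraries were therefore under 1% at the annotated start.

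Most Hsd3b1 reads began in exon 2, which the annotation knows only as an internal exon. Models starting at 98858341, 1453 bases downstream of the annotated start, held 4961 reads in replicate 1 (78.7%, 77.7 to 79.7) and 3942 in replicate 2 (79.0%, 77.8 to 80.1). No annotated start lay within 100 bases. A second group started with exon 3, at 98858026, and held 881 reads (14.0%, 13.1 to 14.9) and 759 reads (15.2%, 14.2 to 16.2). Models starting with exon 4 held 25 and 22 reads. These 3 recorded starts are the upstream boundaries of annotated exons 2, 3 and 4, and 33 models shared the first of them, so the deposited positions are model coordinates and do not show where each read began.

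Hsd3b6 and Hsd3b7 reads began mostly in their first annotated exon. Among spliced reads, 0.272% and 0.148% of those of Hsd3b1 began in the first annotated exon, whereas 98.1% (203 of 207; interval 95.1 to 99.2) and 100% (172 of 172; 97.8 to 100) of those of Hsd3b6 did. For Hsd3b7 the shares were 97.1% (66 of 68; 89.9 to 99.2) and 97.9% (46 of 47; 88.9 to 99.6). The interval of Hsd3b1 did not overlap that of either other gene in either library. Intervals cover counting error only. Models of annotated transcripts carry the annotated start, so these shares rest on how reads were assigned to models.

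**Figure D2:**
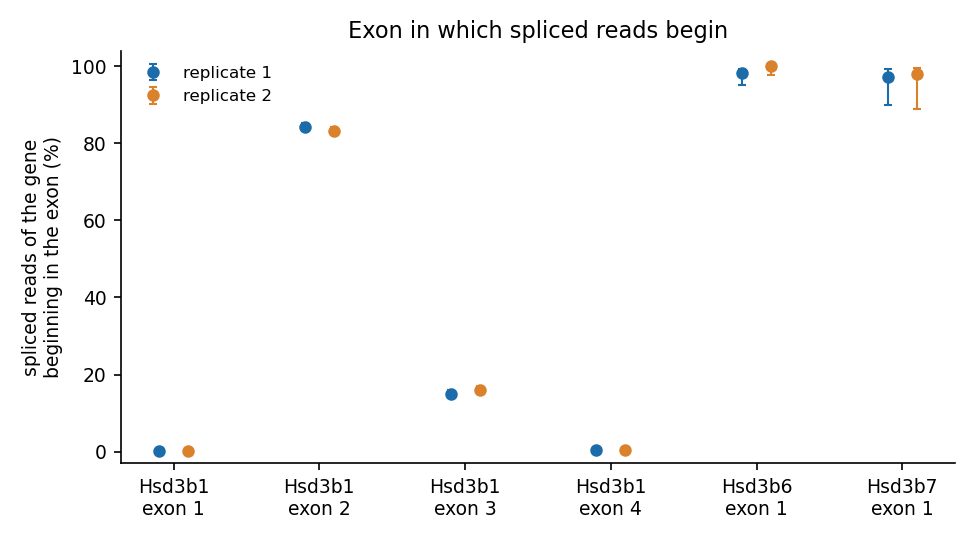
Share of a gene's spliced reads that begin in each named exon, in percent, for exons 1 to 4 of Hsd3b1-202 and the first exons of Hsd3b6 and Hsd3b7. Points are the 2 libraries and bars are 95% Wilson intervals; Hsd3b1 reads begin mainly in exon 2 (84.3% in replicate 1), whereas those of Hsd3b6 and Hsd3b7 begin in exon 1.

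By transcript model, the commonest form of Hsd3b1 was a 4-exon partial match to Hsd3b1-202 made of exons 2 to 5. TALON, the program that built the models, classes it as an incomplete splice match (ISM), since its splice junctions are a run of the annotated ones. It held 4870 reads (77.2%) in replicate 1 and 3869 (77.5%) in replicate 2, a mean of 77.4 ± 0.208% (SD, n = 2). Its recorded 3′ end lies past the annotated end of the gene. Models ending over 100 bases past that end held 5285 of 6305 and 4879 of 4990 Hsd3b1 reads, against 0 for Hsd3b6 and Hsd3b7. A model, however, has 1 recorded end for all its reads. Models of annotated transcripts carry the annotated end, and they held most Hsd3b6 and Hsd3b7 reads, so the 0 was largely set by model class. The 3-exon form made of exons 3 to 5 held 879 (13.9%) and 753 (15.1%). The annotated Hsd3b1-201 held 14 and 5 reads and Hsd3b1-202 held 2 and 1. The order of the 2 leading forms was the same in both libraries, and the annotated forms together stayed under 1%.

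**Figure D3:**
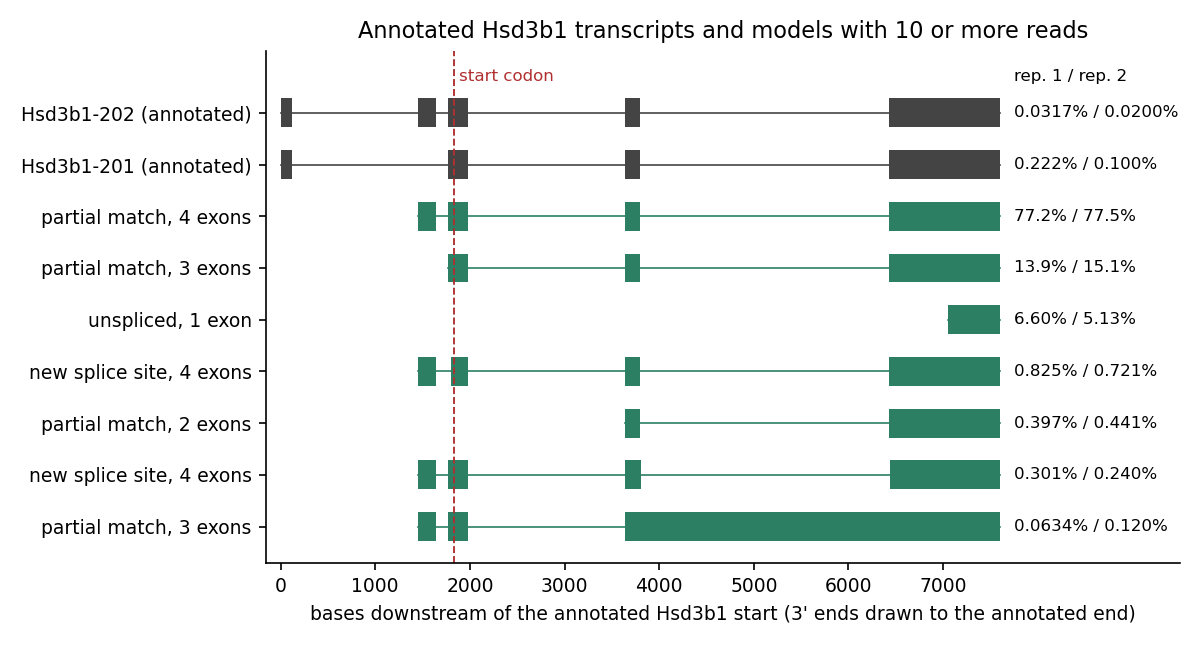
Exon maps of the 2 annotated Hsd3b1 transcripts (grey) and of the unannotated models with at least 10 reads in sum (green), by distance in bases from the annotated start. Boxes are exons, the dashed line is the start codon and the numbers are the shares of Hsd3b1 reads in replicate 1 and replicate 2; the 4-exon form that begins in exon 2 holds 77.2% and 77.5%.

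These forms carry different leaders ahead of the same start codon. In the annotated sequence, exons 2 and 3 give a leader of 252 bases that holds 3 upstream ATG triplets, and exon 3 alone, taken from its first base, gives 62 bases with none. The leader of Hsd3b1-201 has 185 bases with none, and that of Hsd3b1-202 has 375 bases with 3. The junction from exon 2 to exon 3 was in the models of 4911 reads of replicate 1 (77.9%) and 3905 of replicate 2 (78.3%). How much of exon 2 each read held, and so whether it held the triplets, cannot be told from the model coordinate. Whether any of them is translated was not measured.

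Most Hsd3b1 reads were assigned to models that hold every coding exon with its annotated junctions. Counting only models that also hold a spliced exon upstream of the start codon, these were 4938 of 6305 reads in replicate 1 (78.3%, 77.3 to 79.3) and 3912 of 4990 in replicate 2 (78.4%, 77.2 to 79.5). The form of exons 3 to 5 would raise the shares to 92.3% and 93.5%, but the start codon lies 62 bases inside exon 3. Whether each read of that form begins before it cannot be told from the model coordinate.

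Smaller forms of Hsd3b1 recurred in both libraries. A 4-exon form with a new splice site spliced exon 2 to a point 31 bases into exon 3 (exon end 98857995), still upstream of the start codon. It held 52 and 36 reads (0.825% and 0.721%). Taken from the first base of exon 2, its leader has 221 bases and 3 ATG triplets. A 2-exon form of exons 4 and 5 held 25 and 22 reads. A 3-exon form that kept the last intron held 4 and 6 reads. Single-exon models (class genomic) held 416 reads in replicate 1 (6.60%) and 256 in replicate 2 (5.13%), most of them starting at 98852745 inside exon 5. Hsd3b1 models under 10 reads in their library numbered 21 and 24, with 33 and 42 reads in all.

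A shifted junction between exons 4 and 5 of Hsd3b1 is shown in sequence because its model coordinates skip coding bases. Read sequences were not examined, so the loss of these bases rests on the coordinates alone. Each line gives 30 bases of the upstream exon, the 8 bases that the shifted form skips in capitals, and the bases that follow in the downstream exon, from the annotated transcripts.
Hsd3b1: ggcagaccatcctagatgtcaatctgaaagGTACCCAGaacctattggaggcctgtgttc
Hsd3b6: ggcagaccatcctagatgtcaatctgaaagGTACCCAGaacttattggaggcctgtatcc
The shifted form also added 5 intronic bases at the donor side, a net change of -3 bases, a multiple of a codon; the added bases were not read here, so whether they hold a stop codon is not known. It was in 22 of 5876 reads across the junction in replicate 1 (0.374%, 0.247 to 0.566) and 18 of 4720 in replicate 2 (0.381%, 0.241 to 0.602). In Hsd3b6, whose 60 bases here differ at 3 positions and at 0 of the 8 skipped ones, it was in 0 of 206 reads (which allows up to 1.46%) and 1 of 172 (0.581%, 0.103 to 3.22). At the depth of Hsd3b6 a share like that of Hsd3b1 was not detectable as a difference.

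The use of the Hsd3b1 forms was compared between the libraries. Two-sided Fisher's exact tests with Benjamini-Hochberg adjustment were run over the 5334 genes that reached 20 reads in both libraries, and a call needed an adjusted p under 0.05 together with 10 percentage points or more. None of the 3 genes was called in either exact test, and none had an unadjusted p under 0.05. The background was 0.487% for the most abundant transcript and 0.994% for the main start group (5′ ends joined within 100 bases). For Hsd3b1 the adjusted p was 1.00 in both exact tests, and the shares differed by 0.29 and 0.31 percentage points (replicate 2 minus replicate 1).

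By class, 91.7% and 93.3% of Hsd3b1 reads were ISM, and 0.254% and 0.120% matched an annotated transcript. Over all annotated genes, ISM took 8.41% and 8.32% of reads and annotated transcripts took 79.4% and 79.0%. Hsd3b6 reads matched an annotated transcript in 96.7% and 95.5%, and Hsd3b7 reads in 81.2% and 74.5%. Of the 3 genes with reads, Hsd3b1 alone lay below the all-gene share of annotated transcripts in replicate 1, and Hsd3b7 also lay below it in replicate 2. The interval of Hsd3b7 there, 60.5 to 84.7, included the all-gene share.

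A narrower measure, the largest single ISM transcript of a gene, was taken over well-covered genes. Among the 466 genes that reached 200 reads in both libraries, the share of reads in the largest single ISM transcript had a median of 1.01%, and 5 genes (1.07%) exceeded 50%. Atp5f1, a subunit of ATP synthase, was first at 94.1 ± 1.60% (SD, n = 2), and Hsd3b1 was second at 77.4 ± 0.208%. Dhcr7, the last reductase of cholesterol synthesis, followed at 67.3 ± 0.184%, then Hao2, a peroxisomal hydroxyacid oxidase, at 66.1 ± 3.98%. Atp5j, also an ATP synthase subunit, stood at 58.3 ± 5.46% and Pink1, a mitochondrial kinase, at 45.9 ± 5.37%. The values of Dhcr7 and Hao2 did not differ beyond their spread. Likeness here is only in how the reads fall on annotated transcripts, over 2 libraries.

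**Figure D4:**
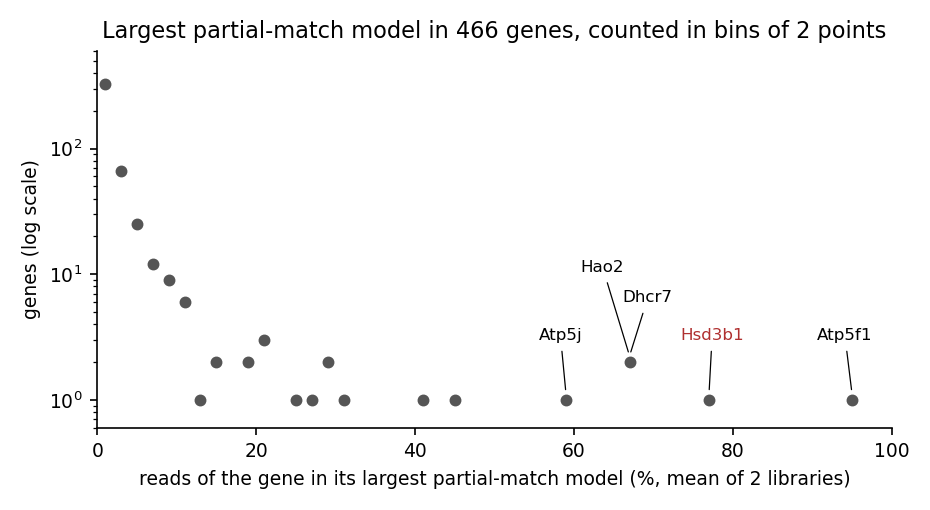
Number of genes (log axis) by the share of reads in their largest partial-match (ISM) model, mean of 2 libraries, for the 466 genes that reached 200 reads in both. Each point is a bin; most genes lie near the median of 1.01%, and the named genes, Hsd3b1 among them at 77.4%, lie above 50%.

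By start position, 91 of 5334 genes (1.71%) had a main start group without an annotated start within 100 bases. In the 466 well-covered genes there were 4 (0.858%), among them Hsd3b1 at 78.8 ± 0.222% of reads, Hao2 at 68.5 ± 4.75% and Cyb561, a cytochrome of chromaffin vesicles, at 59.2 ± 2.82% (SD, n = 2). Hao2 and Cyb561 were named here after their values were seen. Hsd3b1 had the highest share of the 4 in both libraries. Models of annotated transcripts carry the annotated start, so a gene led by them could not enter this count. The count is therefore not independent of the class shares above.

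Hao2 is also the neighbour of Hsd3b1, which was noticed after the values were seen. It lies 14727 bases upstream on the same strand (chr3:98874521-98893239) and had 933 and 665 reads (1072 ± 84.5 CPM, SD, n = 2). A single read in each library held exons of both genes, and it was assigned to Hao2 in replicate 1 and to Hsd3b1 in replicate 2. In replicate 2, 1 further read named Hsd3b1 lay wholly inside Hao2. These reads are too few to move any value given here.

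Hsd3b6 (ENSMUSG00000027869.14; chr3:98805504-98814443, minus strand) was read mainly as annotated. Hsd3b6-201, with 4 exons, held 201 of 212 reads in replicate 1 (94.8%) and 171 of 179 in replicate 2 (95.5%), a mean of 95.2 ± 0.509% (SD, n = 2). The group of starts at 98814443, the annotated start that models of Hsd3b6-201 carry, held 203 (95.8%) and 172 reads (96.1%). Hsd3b6-202, which begins with the second exon of Hsd3b6-201, held 3 and 0 reads, and single-exon models held 5 and 7. All coding exons, with a spliced exon upstream of the start codon, were in the models of 95.3% and 95.5% of reads. Between the libraries, both exact Fisher tests gave an adjusted p = 1.00. In replicate 1, 1 read began at 98820249, upstream of the annotated gene.

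Markers of the zona glomerulosa, the zone for which Hsd3b6 is known, were all present. All 7 genes of that list, which includes Hsd3b6 itself, had reads in both libraries; none of the 5 tested was called by the exact binomial test (background 3.41%), and 1, Cyp11b2, had an adjusted p under 0.05 (background 11.1%). Cyp11b2, the aldosterone synthase, had 1264 and 2048 CPM, and Hsd3b6 had 257 and 273 CPM. No test in these whole-gland libraries places the reads of Hsd3b6 in a zone.

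Hsd3b7 (ENSMUSG00000042289.11; chr7:127800604-127803802, plus strand) had the lowest depth of the 3 genes with reads, and the smallest mean share in its leading transcript, 71.4 ± 7.68% (SD, n = 2). The mean share of Hsd3b1, 77.4%, lay within that spread. Hsd3b7-201, with 7 exons, held 53 of 69 reads in replicate 1 (76.8%, 65.6 to 85.2) and 31 of 47 in replicate 2 (66.0%, 51.7 to 77.8). The difference of -10.85 percentage points did not pass the exact Fisher test (adjusted p = 0.980). The main start group lay at the annotated start, which models of Hsd3b7-201 carry, and held 95.7% and 97.9% of reads (exact Fisher adjusted p = 1.00). Hsd3b7-201 was also the form that holds all coding exons, at the same shares.

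Part of the remaining Hsd3b7 reads kept an intron. The fourth intron (127801943-127802013, 71 bases) was kept in 6 reads of replicate 1 (8.96%, 4.17 to 18.2) and 11 of replicate 2 (23.4%, 13.6 to 37.2), among reads that kept or removed it. The annotated Hsd3b7-206, which keeps this intron, accounted for 3 reads in each library. The last intron (127802399-127802785, 387 bases) was kept in 3 reads (4.48%, 1.53 to 12.4) and 8 reads (17.0%, 8.89 to 30.1). Both shares were higher in replicate 2, the intervals of the libraries overlapped, and the difference was not tested. The junction from the first exon to an acceptor at 127801127, annotated in Hsd3b7-205 and Hsd3b7-207, was in 4 and 2 reads. A form with this junction in an unannotated combination of exons held 2 reads in each library.

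**Figure D5:**
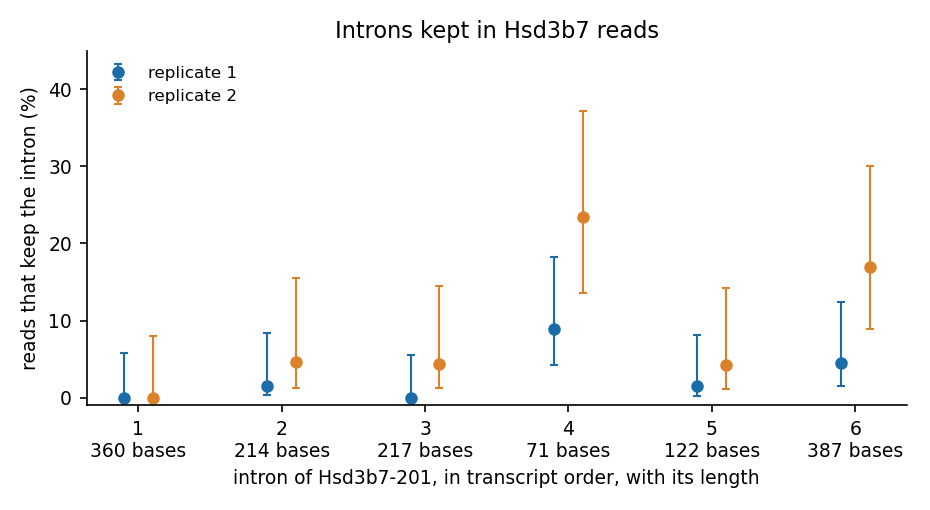
Share of Hsd3b7 reads that keep each of the 6 introns of Hsd3b7-201, in percent of reads that keep or remove it. Points are the 2 libraries and bars are 95% Wilson intervals; the fourth intron, of 71 bases, is highest in both libraries (8.96% and 23.4%).

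Hsd3b2 (ENSMUSG00000063730.13; chr3:98709255-98724543, minus strand) and Hsd3b3 (ENSMUSG00000062410.14; chr3:98741523-98763127, minus strand) had no read in any model, so no start or splice form can be given for them. A count of 0 allows up to 3.64 and 4.57 CPM, below the level of Hsd3b7. The kidney and liver markers given above were also at or near 0, except Aqp2 with 6 reads in each library. Hsd3b4 and Hsd3b5, 3-ketosteroid reductases of the same cluster, had 0 reads too. Of 11 pseudogenes in and around the cluster, 3 had reads, 2 in replicate 1 and 3 in replicate 2 in all. The reads of the chromosome 3 members thus all lay on Hsd3b1 and Hsd3b6.

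The other genes of adrenal steroid synthesis were given by a list of 36, of which 27 could be tested. In each direction 1 gene was called, against a background of 2.36% higher in replicate 1 and 1.05% higher in replicate 2. The gene higher in replicate 1 was Hsd11b1, which regenerates active glucocorticoid and had 118 and 41 reads (log2 ratio -1.28, exact binomial adjusted p = 5.66e-06). By an adjusted p alone, 8 were higher in each library, against 7.53% of all genes tested for replicate 1 and 3.55% for replicate 2. These backgrounds were not matched for depth. The exact binomial test passes smaller ratios in genes with more reads, such as Cyp11a1 with 21722 and 13061. The list's median log2 ratio was -0.19, and that of all genes tested was 0.01. The 4 most abundant members were Cyp11a1, the side-chain cleavage enzyme before the Hsd3b step, at 23120 ± 4575 CPM, Cyp21a1, the 21-hydroxylase after it, at 13534 ± 3384 CPM, Star at 13340 ± 1883 CPM and Cyp11b1 at 8603 ± 1489 CPM (SD, n = 2).

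Bile acid synthesis, the pathway of Hsd3b7, was covered thinly. Of 13 genes listed, 4 had reads in both libraries and 7 had none in either, among them Cyp7a1, the first enzyme of the classical route, and Akr1d1, which acts after Hsd3b7. Of the 3 that could be tested, none was called by the exact binomial test (background 3.41%), and 1 had an adjusted p under 0.05 (background 11.1%). Scp2, a sterol carrier of peroxisomes, had 482 and 289 reads, Amacr 36 and 21, and Cyp27a1, the mitochondrial sterol 27-hydroxylase, 11 and 10. Hsd3b7, with 69 and 47 reads, stood between Scp2 and Amacr in both libraries.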

How the data were processed

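Long-read RNA sequencing was carried out on 2 adrenal gland libraries, each with its own table and annotation of transcript models. The authors deposited counts, whole numbers of reads per transcript model with no normalization, and per the deposited notes reads were aligned to mm10 and annotated with GENCODE M21. TALON made the models, as their deposited annotation records. The aligner, its version, filters and strand handling are not stated there or in the labels, so reads of overlapping genes on opposite strands may not be told apart.

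New spliced models were matched between libraries by intron chain. A model has 1 recorded start and end, so positions, and lengths such as the 5334 and 3874 bases of the leading Hsd3b1 model, are not read ends. Spike-in reads (5731 and 5156) were left out of the totals of 824225 and 656826. Ratios used TMM (edgeR 4.0.16, R 4.3.3) with 1 CPM added, which moves all log2 ratios by 0.10 against totals. edgeR's quasi-likelihood test needs replicated groups and could not be fitted, so exact binomial and Fisher's exact tests (scipy 1.17.1) were used. Alternatives were library totals, DESeq2 1.42.0 size factors, leaving out genomic models, annotated models only, other read minimums and start windows, and each library alone. Both tests were tested on simulated counts. Shares carry 95% Wilson intervals. Coding sequences were aligned with Biopython 1.88.

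The members, lists and tests were chosen with earlier results of these data known. The rule named all 5 genes with every model of at least 10 reads in sum, other Hsd3b genes, the 5 genes most like Hsd3b1 in their largest ISM share, the 4 most abundant and any called pathway genes, and the bile acid list. Protein sequences and the genome around the exon 2 start of Hsd3b1 were not used here. Some named items are not reported here.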

Additional observations from a re-analysis of the deposited data

Results flagged for a closer look

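Reads on the strand opposite to Hsd3b1 lie outside the values given for the 5 genes. Summed over models they numbered 6 in replicate 1 and 6 in replicate 2, above the 3 reads per library that a count of 0 allows. Hsd3b1 itself had 6305 and 4990 reads. The opposite reads lay in single-exon models in the last intron and across the intron between exons 2 and 3. One model ended at 98855234 in both libraries and held 4 and 5 reads. That position is also an exon edge in Hsd3b1 models of 1 read. The other ran from 98857995 to 98858152 and held 2 and 1, and both of its ends are splice positions of Hsd3b1 itself. No reads lay opposite Hsd3b2, Hsd3b3, Hsd3b6 or Hsd3b7. The sources used here do not say how strand was assigned.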

How the results depend on the processing

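No Hsd3b gene changed its call between the libraries, in reads, leading transcript or main start, under any alternative that could be run. By library totals, 128 genes in all were higher in replicate 2, against 85 with TMM and 69 with DESeq2 size factors. Leaving out genomic models raised the mean share of the leading transcript to 82.2% for Hsd3b1 and 98.3% for Hsd3b6, raised the main start share to 83.8% and 99.0%, and lowered the level of Hsd3b1 to 7475 CPM. Joining starts within 200 bases raised the main start share of Hsd3b1 to 93.5%, since 5 reads starting at 98858152 then link the starts of exons 2 and 3. With annotated models only, Hsd3b1 fell to 18.5 CPM and Hsd3b6 stood at 331 CPM of the smaller total, and the log2 ratio of Hsd3b1, on 22 reads in sum, was -1.11 (exact binomial adjusted p = 0.334). Each library alone gave 7597 to 7650 CPM for Hsd3b1, 257 to 273 for Hsd3b6 and 71.6 to 83.7 for Hsd3b7. Leading transcript shares ranged over 77.2% to 77.5%, 94.8% to 95.5% and 66.0% to 76.8%, and start shares over 78.7% to 79.0%, 95.8% to 96.1% and 95.7% to 97.9%. Of all recomputed values, 76 kept to the main value or call and 9 moved. This tally is no measure of stability. A value from 1 library always lies within the SD of the pair, so it could not count as moved. A test counted as kept whenever its call was unchanged, as for Hsd3b1 at a log2 ratio of -1.11. Hsd3b7 has 47 reads in replicate 2, so the minimum of 50 reads per library gives no value for it, and its shares are limited by depth. No paired analysis was possible because the libraries form a single group.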
